A study of Mus musculus with 6 samples.

Results

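The genes described here are the 3 ligands of the transforming growth factor beta (TGF-beta) pathway, Tgfb1, Tgfb2 and Tgfb3, the receptor genes Tgfbr1, Tgfbr2 and Tgfbr3, and the intracellular transducers Smad2, Smad3, Smad4 and Smad7. They were chosen by gene name from the deposited gene table, where all 10 names matched 1 row each of 55401. All 10 passed the filter on low values, a mean of at least 1 FPKM (fragments scaled to transcript length and sequencing depth) over the 6 libraries, which 12774 genes passed. The study asked what mitochondria from osteocytes do to the transcripts of endothelial cells. It used wild-type bEnd.3 cells, a mouse brain endothelial line transformed with a polyomavirus oncogene, in 2 groups of 3 libraries. One group, called mitochondria, was incubated for 24 h with mitochondria isolated from the osteocyte-like mouse line MLO-Y4 and suspended in 100 ul of medium, and the other, called control, received the same volume of medium without mitochondria. No group given mitochondria of another source was analysed here, and both groups come from 1 cell line. Whether the replicates were separate cultures is not stated in the labels, so the p-values measure the spread between these libraries, which may be technical.

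TGF-beta ligands are secreted as latent dimers that are released in the extracellular space. The active ligand binds the type II receptor encoded by Tgfbr2, which recruits and phosphorylates the type I receptor ALK5, encoded by Tgfbr1, and betaglycan, encoded by Tgfbr3, presents ligand and is needed above all for TGF-beta 2. ALK5 phosphorylates SMAD2 and SMAD3, which enter the nucleus with the common partner SMAD4, while SMAD7, itself a target gene of the pathway, inhibits the receptor. Endothelial cells can also signal from TGF-beta through a further type I receptor, ALK1, encoded by Acvrl1, with the co-receptor endoglin and SMAD1 and SMAD5.

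The upstream sequences of Tgfb1 and Tgfb2 are shown because these were the most and the least abundant ligand transcripts, and because Tgfb2 had the smallest p of the ligands. Of the 10 genes 5 had an entry among the promoters from RefSeq (GRCm38.p6), and 3 of these entries are not printed. Each sequence covers the 250 bases before the annotated start, 5′ to 3′ on the strand of the gene. Capitals mark matches to 4 motifs searched on both strands, the TATA box core TATAAA, the E-box CACGTG, the GC box GGGCGG and the cyclic AMP response element core TGACG. No printed match overlaps another.
Tgfb1, chr7:25686752-25687001, plus strand: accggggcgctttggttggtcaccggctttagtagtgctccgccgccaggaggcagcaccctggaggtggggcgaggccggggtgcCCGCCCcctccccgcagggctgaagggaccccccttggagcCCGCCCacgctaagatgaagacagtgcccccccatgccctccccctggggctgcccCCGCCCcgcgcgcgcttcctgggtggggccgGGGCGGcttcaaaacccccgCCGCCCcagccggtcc
Tgfb2, chr1:186705990-186706239, minus strand: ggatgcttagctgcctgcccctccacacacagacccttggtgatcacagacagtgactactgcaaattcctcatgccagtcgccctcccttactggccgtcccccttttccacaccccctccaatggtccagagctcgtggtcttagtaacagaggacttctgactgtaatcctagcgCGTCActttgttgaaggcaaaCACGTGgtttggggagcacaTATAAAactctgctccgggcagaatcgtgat
The Tgfb1 sequence is 75.2% G and C, more than 96.1% of 32851 promoters, and holds 5 GC boxes and none of the other motifs. The Tgfb2 sequence is 53.6% G and C and holds 1 TATA box core, which begins 31 bases before the start, 1 E-box and 1 response element core, and no GC box. Of all promoters of this length 12.4% hold the TATA box core, 6.02% the E-box, 32.7% the GC box and 17.8% the response element core. The matches describe the letters of these windows, and no binding was measured.

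Library totals were 65394770 to 73376834 estimated counts, and Pearson correlations of the libraries' deviations from their group means were 0.15, 0.172 and 0.266 across genes between same-numbered libraries of the 2 groups. The endothelial label was checked with 20 marker genes, of which 12 stayed below 1 FPKM in every library, among them Pecam1 and Cdh5, and Cldn5 had no count, while Cd34, Eng and Flt1 were well expressed. The 20 genes summed to 291.5 to 327.5 FPKM in control and 349.5 to 354.4 FPKM in mitochondria libraries, without overlap. Of the 7 that passed the filter, 6 were higher and 1 was lower with mitochondria, where 50.4% of all genes tested were lower. Markers of other cells also moved between libraries. The summed level of 18 pancreatic acinar genes was 104.6 to 180.4 FPKM in control and 20.9 to 23.2 FPKM in mitochondria libraries, where nearly all of it was Cela1. The other 17 summed to 82.6 to 151.9 FPKM in control and 0.16 to 0.422 FPKM in mitochondria libraries, with 14 of them at a count of 0 in all 3 of the latter. The 14 mural and fibroblast markers summed to 54.8 to 82.5 FPKM in control and 55.8 to 70.8 FPKM in mitochondria libraries, with Cnn1 at 0 in all. The 8 osteocyte markers summed to 7.82 to 16.6 and 11 to 13.3 FPKM, with Dmp1 and Mepe at 0, and the 8 leukocyte markers to 9.5 to 14.5 and 12.7 to 15.5 FPKM, with Cd3e at 0. The 14 liver markers summed to 25.4 to 35.3 FPKM in control and to 1.6, 26.7 and 26.4 FPKM in mitochondria replicates 1, 2 and 3. Only mitochondria replicate 1 lay below the control range. Both groups are of 1 cell line, and the source of the acinar and liver transcripts was not tested. In bulk RNA, fewer cells of a type and less RNA per cell cannot be told apart.

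No gene of the core pathway passed the test between cells with and without added mitochondria. The lowest p-values belonged to Smad4, the common SMAD, at 0.811-fold, and Tgfb2, at 0.668-fold, while Tgfb1, Tgfbr2, Tgfbr3 and Smad3 had fold changes of 0.938 to 0.965. The quasi-likelihood F-test of edgeR called 0 of the 10 genes at a Benjamini-Hochberg adjusted p under 0.05, where it called 0.164% of all genes tested. At an unadjusted p under 0.05 it counted 2 of the 10, both lower, against 6.24% of all genes lower at that threshold. DESeq2 called 1 of the 10, Smad4, which was lower (adjusted p = 0.0264), against 1.2% of all genes lower and 2.82% in either direction. The median log2 fold change was -0.088 for the 10 genes and -0.002 for all genes tested. When 1 library at a time was left out, the median of the 10 genes was -0.11 (without control replicate 3) to -0.03 (without control replicate 2). Of the 10 genes 8 had a log2 fold change below 0, against 50.4% of all genes tested. The 10 genes were measured in the same 6 libraries and are not independent of each other.

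**Figure D1:**
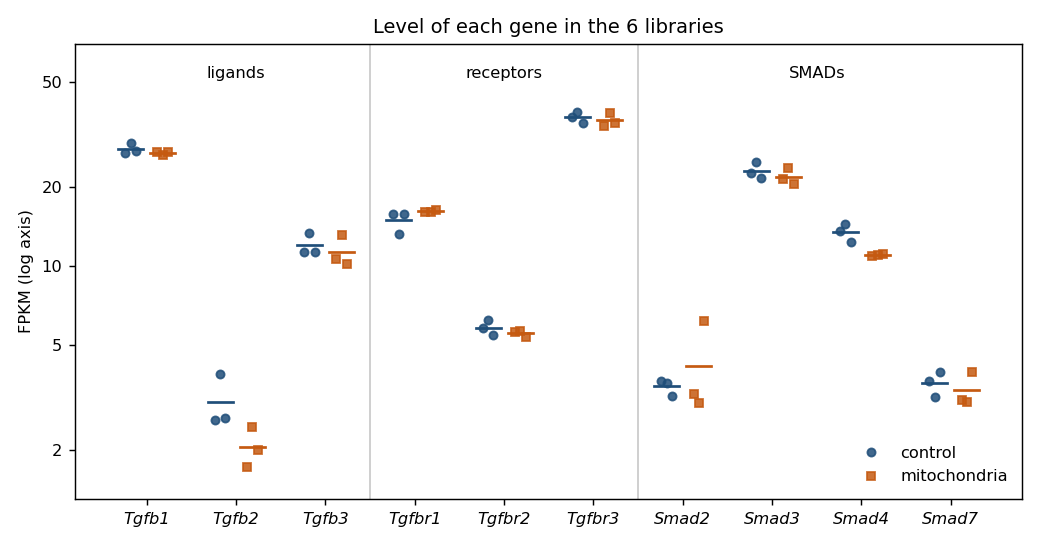
FPKM on a log axis for each gene, with control libraries as blue circles, mitochondria libraries as orange squares and group means as bars. Tgfbr3 lies highest at 34.2 to 38.6 FPKM and Tgfb2 lowest at 1.73 to 3.9 FPKM, and Smad2 has 1 mitochondria library at 6.2 FPKM above the rest.

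Among the ligands, Tgfb1 made up most of the transcript level. Tgfb1 (ENSMUSG00000002603, chromosome 7, 25687002 to 25705077 in GRCm38) encodes the ligand isoform best known from platelets, vessel walls and bone matrix. It had 26.9, 29.4 and 27.5 FPKM in the control libraries and 27.1, 26.3 and 27.3 FPKM in the mitochondria libraries. The FPKM ranges overlapped. In CPM (counts scaled to library size with the TMM factors of edgeR, not to length) the groups were 154.5 or above in control and 154.2 or below with mitochondria. This gap was far smaller than the spread of the control libraries. It rests on the TMM factors, which were 0.9958 to 0.9975 in control and 1.002 to 1.007 in mitochondria libraries. The fold change was 0.954 with a 95% interval of 0.881 to 1.03 (edgeR adjusted p = 0.584).

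Tgfb2 (ENSMUSG00000039239, chromosome 1, 186622792 to 186705989), whose product needs betaglycan for high-affinity binding, was the least abundant ligand. It had 17.1, 25.7 and 17.4 CPM in the control libraries and 11.3, 16 and 12.9 CPM in the mitochondria libraries. The groups did not overlap, and control replicate 2 stood above the other control libraries. Its mean was 20.1 ± 4.87 CPM in control and 13.4 ± 2.37 CPM with mitochondria (SD, n = 3), a log2 fold change of -0.58 with a standard error of 0.204. It did not pass over all genes (edgeR adjusted p = 0.33, unadjusted p = 0.027). With 1 library left out, the log2 fold change ranged from -0.73 (without mitochondria replicate 2) to -0.36 (without control replicate 2).

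Tgfb3 (ENSMUSG00000021253, chromosome 12, 86056745 to 86079041), the ligand known for its part in palate closure and scarring, varied more within the groups than between their means. It had 43.4, 51.5 and 43.4 CPM in the control libraries and 40.5, 50.3 and 38.7 CPM in the mitochondria libraries, highest in replicate 2 of both. The groups overlapped, and the fold change was 0.936 with a 95% interval of 0.763 to 1.15 (edgeR adjusted p = 0.777). Of the summed FPKM of the ligands, Tgfb1 took 65.1% ± 1.81 in control and 66.9% ± 3.55 with mitochondria (SD, n = 3). Tgfb2 took 6.34%, 8.34% and 6.39% in control and 4.38%, 5.81% and 5.04% after mitochondria, so that each mitochondria library lay below each control library.

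**Figure D2:**
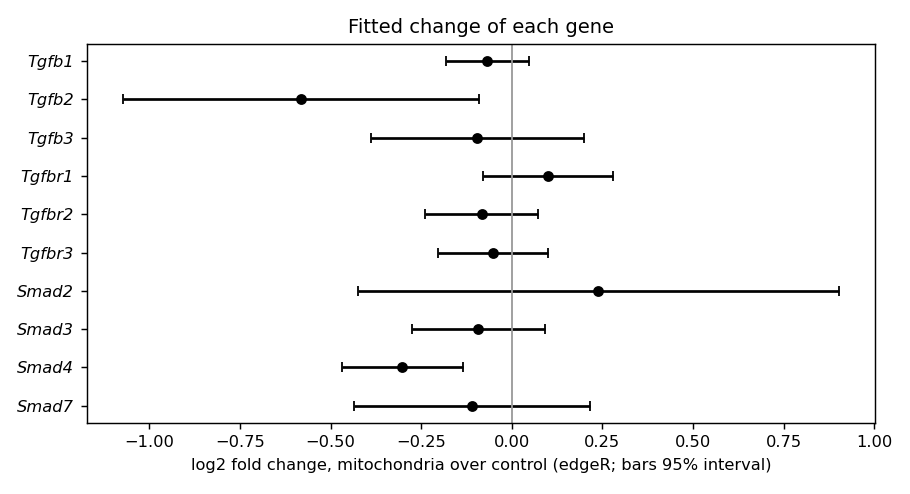
Log2 fold change of each gene, mitochondria over control, from edgeR, with its 95% interval as a bar. The unadjusted intervals of Tgfb2 and Smad4 lie below 0 and the other 8 include 0, with the widest for Smad2 and Tgfb2.

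Of the receptors, betaglycan was the most abundant by transcript. Tgfbr3 (ENSMUSG00000029287, chromosome 5, 107106570 to 107289629) had 275.4, 287 and 259 CPM in control and 253, 283.1 and 256.5 CPM in mitochondria libraries, which overlapped (0.965-fold, 95% interval 0.869 to 1.07; edgeR adjusted p = 0.767). Tgfbr1 (ENSMUSG00000007613, chromosome 4, 47353222 to 47414931), which encodes the signalling kinase ALK5, had 117.8, 98.6 and 116.4 CPM in control and 118.2, 118.1 and 120.3 CPM in mitochondria libraries. Control replicate 2 was low and the other 5 libraries were close together. Its fold change was 1.07 with a 95% interval of 0.946 to 1.21 (edgeR adjusted p = 0.61). Its log2 fold change of 0.1 was 0.022 without control replicate 2 and 0.149 without control replicate 1. Tgfbr2 (ENSMUSG00000032440, chromosome 9, 116084293 to 116175360), the ligand-binding kinase, was the least abundant receptor, with 54.1, 57.9 and 50.6 CPM in control and 51.8, 52.5 and 49.2 CPM in mitochondria libraries. These groups overlapped as well (0.944-fold, 95% interval 0.847 to 1.05; edgeR adjusted p = 0.624).

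Per transcript length, type I receptor transcripts outnumbered those of type II. The FPKM ratio of Tgfbr1 to Tgfbr2 was 2.73, 2.13 and 2.88 in control and 2.86, 2.82 and 3.06 after mitochondria, with overlap between the groups. The FPKM ratio of Tgfbr3 to Tgfbr2 was 6.11 to 6.76 over all 6 libraries. The alternative type I receptor gene Acvrl1 stood at 0.437, 0.529 and 0.401 of the FPKM of Tgfbr1 in the control libraries and at 0.8, 0.863 and 0.794 of it in the mitochondria libraries.

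Smad4 had the smallest p of the 10 genes. Smad4 (ENSMUSG00000024515, chromosome 18, 73639009 to 73703780), shared by the TGF-beta and BMP branches, had 57.5, 61.1 and 51.9 CPM in the control libraries and 45.8, 46.2 and 46.3 CPM in the mitochondria libraries. All mitochondria libraries lay below all control libraries and within 1 CPM of each other. The mean went from 56.8 ± 4.66 to 46.1 ± 0.298 CPM (SD, n = 3), 0.811-fold with a 95% interval of 0.722 to 0.91. The adjusted p was 0.244 by edgeR, with an unadjusted p of 0.00407, and the log2 fold change of -0.30 was -0.36 to -0.25 when 1 library at a time was left out. With the replicate number as a block the edgeR adjusted p was 0.226. Smad4 took 31.3%, 31.3% and 30% of the summed FPKM of the 4 SMAD genes in control and 28.2%, 27.2% and 26.6% in mitochondria libraries.

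**Figure D3:**
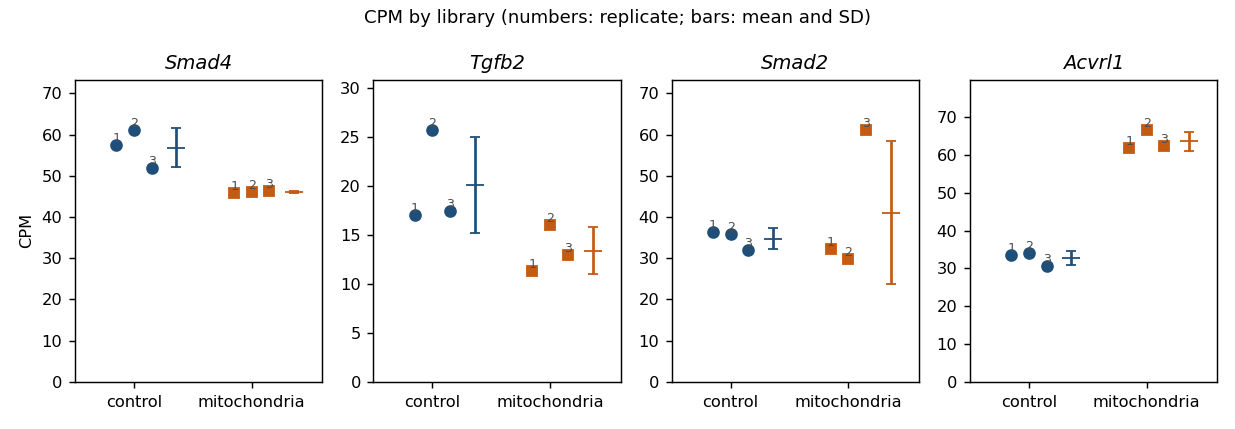
CPM of Smad4, Tgfb2, Smad2 and Acvrl1 in each library, numbered by replicate, with the mean and SD of each group as bars. Smad4 and Tgfb2 lie lower in every mitochondria library than in any control library, Smad2 is high in mitochondria replicate 3, and Acvrl1 lies at 61.8 to 66.6 CPM with mitochondria against 30.5 to 34.1 CPM in control.

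Smad2 was set apart by 1 library. Smad2 (ENSMUSG00000024563, chromosome 18, 76241580 to 76310963), a receptor-activated SMAD that mainly acts through partners on DNA, had 36.5, 36 and 31.9 CPM in the control libraries and 32.3, 29.8 and 61.1 CPM in the mitochondria libraries. The value in mitochondria replicate 3 was 1.68 times that of the next library, a gap that 1.52% of the genes tested reached or passed. Its log2 fold change was 0.24 (edgeR adjusted p = 0.755) with that library and -0.16 (edgeR adjusted p = 0.607) without it.

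Smad3 (ENSMUSG00000032402, chromosome 9, 63646767 to 63757994), the receptor-activated SMAD that binds DNA directly, was the most abundant of the 4. It had 142.6, 157.1 and 135.9 CPM in control and 133.9, 147.1 and 127.7 CPM in mitochondria libraries, with overlap and with replicate 2 highest in both groups (0.938-fold, 95% interval 0.826 to 1.07; edgeR adjusted p = 0.643). Smad7 (ENSMUSG00000025880, chromosome 18, 75367529 to 75395935), the inhibitory SMAD, had 18.8, 16.3 and 20.3 CPM in control and 15.8, 15.5 and 20 CPM in mitochondria libraries. Its groups overlapped, with replicate 3 highest in both (0.927-fold, 95% interval 0.74 to 1.16; edgeR adjusted p = 0.77). The FPKM ratio of Smad3 to Smad2 was 6.2, 6.93 and 6.75 in control and 6.57, 7.83 and 3.31 in mitochondria libraries, lowest in the library where Smad2 was high.

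Ordered by mean FPKM over the 6 libraries, the 10 transcripts ran from Tgfbr3 (36.3) and Tgfb1 (27.4) through Smad3 (22.4), Tgfbr1 (15.6), Smad4 (12.2) and Tgfb3 (11.7) to Tgfbr2 (5.69), Smad2 (3.82), Smad7 (3.48) and Tgfb2 (2.55). Neighbours in this order did not overlap in their ranges from Tgfbr3 down to Tgfbr1, nor did Tgfb3 and Tgfbr2. Tgfbr1 and Smad4 overlapped, as did Smad4 and Tgfb3, and Tgfbr2, Smad2, Smad7 and Tgfb2 each overlapped the next. Smad2 was above Smad7 in 3 of 6 libraries. Among the genes tested, Tgfbr3 stood above 89.2% by mean FPKM, Tgfb1 above 85%, Tgfbr2 above 43.5% and Tgfb2 above 20.7%.

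By sample, 4 of the 10 genes had groups that did not overlap in CPM, Tgfb1, Tgfb2 and Smad4 lower and Tgfbr1 higher with mitochondria, against 21.4% of all genes tested. Within same-numbered libraries, a pairing that the labels do not state, 8 of the 10 were lower in CPM with mitochondria in all 3 pairs, against 22.3% of all genes. Tgfbr1 was higher in all 3, against 21.5% of all genes. Some of these differences were very small. In FPKM, Tgfb1 was higher with mitochondria in pair 1 (26.9 and 27.1) and Tgfbr3 in pair 3 (34.91 and 34.93). Among the control libraries replicate 2 was the highest for 7 of the 10 genes, against 35% of all genes tested. With replicate 2 of control left out the log2 fold changes of these 10 genes ranged from -0.36 for Tgfb2 to 0.26 for Smad2. They were closer to 0 for 8 of the 10, which follows from the place of that library among the controls and is no separate result. The library was picked after the values were seen.

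The genes that hold and release latent TGF-beta were examined as a further list. Of 16 listed genes 12 were tested, 4 higher and 8 lower, and 0 were called by edgeR, with 2 at an unadjusted p under 0.05, both higher, where 6.79% of all genes were higher at that threshold and 13% passed it in either direction. The median log2 fold change was -0.044. Ltbp1, which tethers the latent complex to the matrix, had 67.7 ± 6.79 CPM in control and 80.4 ± 2.1 CPM with mitochondria (SD, n = 3), 1.19-fold (edgeR adjusted p = 0.298). Itgav, the integrin alpha-V chain that pulls ligand free of its latency peptide, had 104, 100.3 and 106.1 CPM in control and 107.1, 214.8 and 227.5 CPM in mitochondria libraries. Mitochondria replicate 1 was at the level of the controls and replicates 2 and 3 stood far above it (1.77-fold; edgeR adjusted p = 0.305). DESeq2 called Itgav with all libraries (adjusted p = 0.0345). Without mitochondria replicate 1 edgeR called it (adjusted p = 0.0104), but this fit drops the library that differed from the rest of its group. With any other library left out the edgeR adjusted p was 0.422 to 0.52. Thbs1, which encodes the activator thrombospondin-1, was at 0.714-fold with an edgeR adjusted p of 0.453. Its log2 fold change of -0.49 was -0.17 without control replicate 2 and -0.66 without control replicate 3. The integrin chains Itgb1 and Itgb5, the most abundant of the list, were at 0.988-fold and 0.907-fold (edgeR adjusted p = 0.89 and 0.61). The log2 fold change of Itgb5, -0.14, was -0.03 without control replicate 2 and -0.21 without control replicate 3. The beta chains of the chief activating integrins, Itgb6 and Itgb8, stayed at or below 0.0245 FPKM.

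Among other receptors of the family 1 of 8 tested genes was called, as a rise, against 0.0626% of all genes called higher. The list was chosen with earlier results of these data known, so this count is a description and not a test of the list. Acvrl1, which encodes ALK1, had 33.7, 34.1 and 30.5 CPM in control cells and 61.8, 66.6 and 62.4 CPM after mitochondria and rose 1.94-fold (95% interval 1.74 to 2.16; edgeR adjusted p = 0.0111). The call was lost when replicate number was fitted as a block (edgeR adjusted p = 0.102) and without control replicate 1 (0.117), fits in which the log2 fold change was 0.96 and 0.98 against 0.96 with neither change, and which called 0 and 1 genes in all. Eng, which encodes the co-receptor endoglin, was at 321.8 ± 36.5 and 272.2 ± 10.2 CPM (SD, n = 3), 0.846-fold (edgeR adjusted p = 0.332). Its log2 fold change of -0.24 was -0.15 without control replicate 2 and -0.31 without control replicate 3. Acvr1b, the activin receptor ALK4, which signals through the same SMADs as ALK5, was at 115.4 ± 5.78 and 128.1 ± 2 CPM (SD, n = 3), 1.11-fold (edgeR adjusted p = 0.307). The list had 12 genes, with 5 of the tested ones higher and 3 lower and the median log2 fold change at 0.015. The 4 genes not tested, Acvr1c, Acvr2b, Bmpr1a and Bmpr1b, were at or below 0.475 FPKM.

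All 19 listed SMADs and regulators outside the core set were tested, 7 higher and 12 lower. Their median log2 fold change was -0.077, and edgeR called 0. At an unadjusted p under 0.05 were 3 of the 19, against 13% of all genes tested. Wwp1, a ubiquitin ligase that targets pathway components, was at 76.3 ± 5.19 CPM in control and 61.9 ± 2.72 CPM with mitochondria (SD, n = 3), 0.811-fold, without overlap (edgeR adjusted p = 0.227, DESeq2 adjusted p = 0.0197). Pmepa1, a TGF-beta target that acts back on SMAD signalling, had 41.8, 73.3 and 44.7 CPM in control and 33.3, 39.5 and 31.6 CPM in mitochondria libraries. The groups did not overlap (0.653-fold, edgeR adjusted p = 0.346). The log2 fold change of Pmepa1, -0.61, was -0.31 without control replicate 2 and -0.76 without control replicate 1. Fkbp1a, whose product binds the inactive type I receptor, had 193.6, 158.6 and 175.9 CPM in control and 373.7, 198.4 and 377.6 CPM in mitochondria libraries. Mitochondria replicates 1 and 3 stood far above the other 4 libraries (1.8-fold; edgeR adjusted p = 0.282, DESeq2 adjusted p = 0.0121). Without mitochondria replicate 2 edgeR called Fkbp1a (adjusted p = 0.0408), but this fit drops the library that differed from the rest of its group. With any other library left out the edgeR adjusted p was 0.409 to 0.494. Smurf1, a ubiquitin ligase for receptors and SMADs, was at 1.03-fold (edgeR adjusted p = 0.706).

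Known target genes of the pathway did not shift in 1 direction. Of 22 listed genes 18 were tested, 9 higher and 9 lower (median log2 fold change -0.004), 0 called by edgeR and 6 at an unadjusted p under 0.05, 3 in each direction, where 13% of all genes were. Cdkn1a, the cell cycle inhibitor p21, was at 62.5 ± 2.11 CPM in control and 77.8 ± 2.27 CPM with mitochondria (SD, n = 3), 1.25-fold (edgeR adjusted p = 0.145, DESeq2 adjusted p = 0.0001). Snai2, a transcription factor of mesenchymal transition, was at 28.3 ± 0.43 and 22.7 ± 1.39 CPM (SD, n = 3), 0.804-fold (edgeR adjusted p = 0.227, DESeq2 adjusted p = 0.0147). In both genes the groups did not overlap. Fn1, the matrix protein fibronectin, was at 721.6 ± 39.2 and 816.8 ± 15.3 CPM (SD, n = 3), 1.13-fold (edgeR adjusted p = 0.279), and Col4a1, a basement membrane collagen and the most abundant of the list, at 1.03-fold (edgeR adjusted p = 0.925). Over all 5 lists outside the core set, 60 genes were tested. Of these edgeR called 1, against 0.164% of all genes, and DESeq2 called 6, against 2.82% of all genes. The 6 were Acvrl1, Cdkn1a, Fkbp1a and Itgav higher and Snai2 and Wwp1 lower. Because the lists were chosen with earlier results of these data known, these counts do not test the lists.

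**Figure D4:**
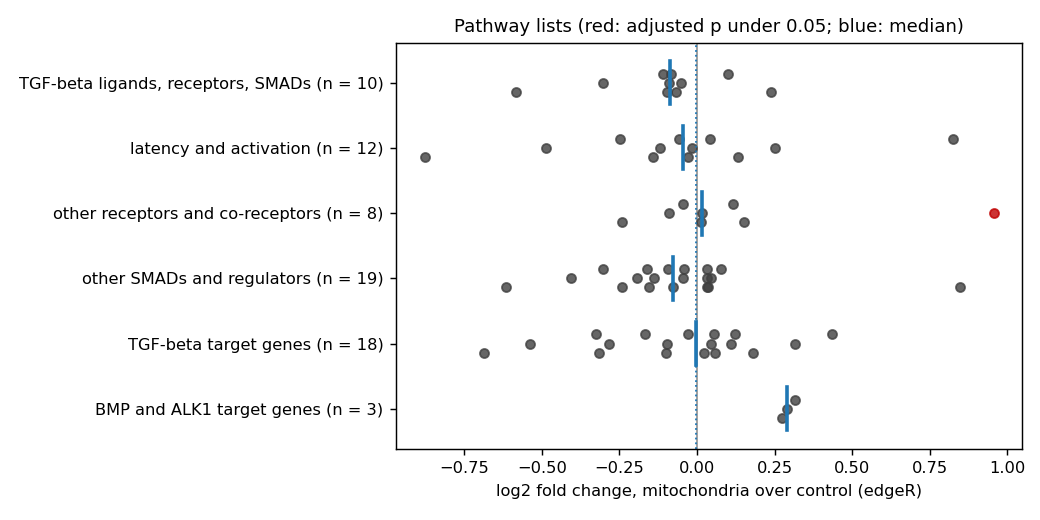
Log2 fold change of every tested gene of the core pathway and of 5 further lists, as dots spread vertically only for legibility, with list medians as blue bars and the median of all genes tested as a dotted line. The only red dot, past the edgeR threshold, is Acvrl1, and the medians lie between -0.088 and 0.29.

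Of the BMP and ALK1 targets 3 of 6 were tested, the Id genes, which encode inhibitors of basic helix-loop-helix factors. Id1 had 105.9, 75.8 and 122.2 CPM in control and 127.2, 109.9 and 133.9 CPM in mitochondria libraries, overlapping and lowest in replicate 2 of both groups (1.22-fold; edgeR adjusted p = 0.532). Id3 and Id2 were at 1.21-fold and 1.25-fold (edgeR adjusted p = 0.738 and 0.847), also with overlap. Without control replicate 2 the log2 fold changes were 0.12 for Id1, -0.0035 for Id3 and -0.1 for Id2. Without control replicate 3 they were 0.45, 0.55 and 0.80.

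Control replicate 2 stood apart in some genes of this pathway, a pattern picked out after the values were seen, as were the genes Fbn1, Ccn1, Ccn2 and Acta2 that show it. Relative to each gene's mean over the 6 libraries it was higher by 0.668 on the log2 CPM scale for Tgfb2, 0.795 for Pmepa1, 0.756 for Thbs1, 0.718 for the matricellular gene Ccn1, 0.971 for Ccn2, 0.932 for the smooth muscle actin gene Acta2 and 1.41 for the fibrillin gene Fbn1. Smad7, at -0.116, did not share it. In the same library the Id genes were low, at -0.546 for Id1, -0.88 for Id3 and -1.59 for Id2. Among the control libraries it was the highest for 11 of 18 tested target genes and 7 of 12 latency and activation genes, against 35% of all genes tested, and the lowest for all 3 Id genes, against 36.8%. It was the highest for 8 of 19 other SMADs and regulators and 2 of 8 other receptors, which is 42.1% and 25%. In this library the summed level of the mural and fibroblast markers was 82.5 FPKM, against 54.8 to 70.8 FPKM in the other 5, that of the acinar genes 180.4 FPKM and that of the endothelial markers 291.5 FPKM, the lowest of the 6, of which Cd34 made up 157 FPKM. Among the control libraries it was the lowest for 6 of the 7 tested endothelial markers, and the exception, Eng, was at its highest of the 6 libraries. The part of these markers in the differences was not tested.

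**Figure D5:**
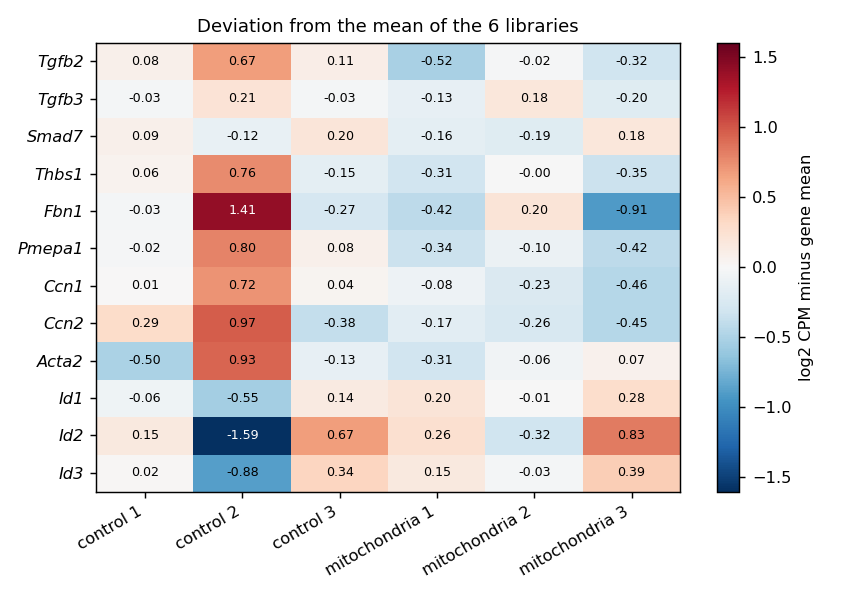
Log2 CPM of 12 genes in each library minus the mean of that gene over the 6 libraries, red above and blue below the mean. Control replicate 2 is the reddest column for Tgfb2, Thbs1, Fbn1, Pmepa1, Ccn1, Ccn2 and Acta2 and the bluest for Id1, Id2 and Id3.

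Likeness to the most abundant gene of each role was measured over the 6 libraries as the root mean square difference of log2 CPM after centring each gene on its mean. The 3 genes nearest to Tgfb1 were Cdk7 (0.00777), Ptpn23 (0.00888) and Ccnt2 (0.0167), where the median gene tested was at 0.132. Nearest to Tgfbr3 were Tax1bp1 (0.0192), Plxna1 (0.0215) and Srfbp1 (0.0221), and nearest to Smad3 were Ghr (0.0148), Ehd4 (0.021) and 2610301B20Rik (0.0211). These are the smallest differences among all genes tested. Values were centred but not scaled, so genes that vary little lie close to each other by this measure. Shared regulation was not tested.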

How the data were processed

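RNA of 6 libraries was sequenced after a strand-specific mRNA library preparation, which the labels' protocols name. Cutadapt 1.9, HISAT2 2.2.1, StringTie 2.1.6, DESeq2, edgeR and the build GRCm38 are named without roles, per the submitters' processing notes, and the sources used here give neither annotation release nor strand setting. Per the file headers, the authors deposited FPKM, with genes at a count of 0 listed at 0.0001. The authors also deposited estimated counts, all whole. Of the values from 1 to 20, 36.6% were multiples of 4, against 25% if spread evenly, so a fragment may stand for several counts.

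Estimated counts were tested in R 4.3.3 by the quasi-likelihood method of edgeR 4.0.16, with TMM scaling, a mean FPKM of at least 1 and Benjamini-Hochberg adjustment over 12774 genes at 0.05. Standard errors derive from the F statistic and intervals from its degrees of freedom. CPM use TMM library sizes. DESeq2 1.42.0, limma 3.58.1 on log2(FPKM + 1), counts divided by 4, other scalings, filters, a replicate block and leaving out each library were alternatives. The scripts were tested on simulated data. Same-numbered libraries correlated at over 0.1 in their deviations, so the numbers were treated as pairs in the block, a pairing seen in the data that the labels do not state. Named genes were all 10 core genes and, of each further list, those called, the 3 with the smallest p and the 2 with the highest mean FPKM. Genes and lists were chosen with earlier results of these data known. Some items are not reported here.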

Additional observations from a re-analysis of the deposited data

How the results depend on the processing

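Under the alternatives run, no core gene was called by edgeR or limma. DESeq2 called 1 of them, Smad4 (log2 fold change -0.30), 6 further pathway genes and 360 genes in all, against 21 by edgeR. The number called in all was 11 with limma on log2(FPKM + 5), 8 with a mean FPKM of at least 5, where Tgfb2, Smad2 and Smad7 were not tested, 6 without the acinar and liver markers, which were 11 of the 21 genes called and were removed by construction, 0 with the replicate block, where 0 further pathway genes were called, and 1 to 27 when 1 library was left out. Further pathway genes called were then 0 to 2. With counts divided by 4 edgeR called 14 genes in all, among them 0 core genes. The replicate block changed no call of a core gene. Smad2 reversed without mitochondria replicate 3, with a log2 fold change of -0.16 to 0.43 over the libraries left out. When 1 library was left out, other genes that did not pass the test also changed sign, with ranges of -0.041 to 0.011 for Itgb1, -0.085 to 0.18 for Col4a1, -0.0035 to 0.55 for Id3 and -0.10 to 0.80 for Id2. The median of the further lists was 0.019 with a mean FPKM of at least 5, against -0.03. The cause was not tested. The 3 libraries a group limit precision, as the interval of Smad2, 0.745 to 1.87-fold, shows.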
